A study of Caenorhabditis elegans with 18 samples.

Results

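The genes mcm-2, mcm-3, mcm-4, mcm-5, mcm-6, mcm-7, cdt-1, cdc-6, pcn-1 and rnr-1 of Caenorhabditis elegans encode proteins that license replication origins or act at the replication fork. They were picked by name, and all 10 were found among the 20191 genes of the deposited count table. Their introns make up 38 of the 106818 intron intervals counted separately.

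In S phase each origin fires once because a helicase is loaded beforehand and activated later. CDC-6 and CDT-1 join the origin recognition complex and load the ring of MCM-2 to MCM-7, which unwinds DNA when the fork starts. PCN-1 is the sliding clamp that holds DNA polymerases on the template, and RNR-1 is the large subunit of ribonucleotide reductase, which makes the deoxynucleotides. In adult worms the dividing cells are those of the germline, and oocytes store the same products for the embryo.

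All libraries came from synchronized young adult hermaphrodites sampled before they had embryos. Every worm, controls included, carried mog-7::degron::gfp, which tags the pre-mRNA splicing factor MOG-7 with a degron, and sun-1p::TIR1::mRuby, which drives the plant F-box protein TIR1 from a germline promoter. Auxin lets TIR1 mark the degron for destruction, so depletion is directed to germ cells. The groups were auxin for 2 h, auxin for 1 h and ethanol for 2 h, with 6 libraries each, 1 from each of the batches I, II, V, VII, VIII and X. The same ethanol libraries served both auxin times, so the 2 comparisons with ethanol share their controls. No worms with auxin but lacking degron or TIR1 entered the comparisons, and what auxin does by itself cannot be told apart from the loss of MOG-7. The labels do not say that libraries of a group came from separate cultures other than by batch.

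Gene counts per library ranged from 18939877 to 28290693 after 2 h of auxin, from 20451185 to 30747645 after 1 h and from 18153020 to 27453865 with ethanol. Levels are given in CPM, counts scaled to a common library size, after adjustment by the trimmed mean of M values (TMM). The mRNA of the tagged gene mog-7 stood at 42.6 ± 2.71 CPM after 2 h, 39.5 ± 3.21 CPM after 1 h and 39.5 ± 1.75 CPM with ethanol (SD, n = 6 each). Its change at 2 h was 0.11 on the log2 scale (adjusted p = 0.136 by edgeR's quasi-likelihood test). The degron acts on the protein, which was not measured. Each of 13 early embryo marker genes was below 1 CPM in every library, while 18 germline markers together held 5745 to 7273 CPM after 2 h, 7111 to 8305 CPM after 1 h and 7256 to 8999 CPM with ethanol. Of these 18 germline markers, 0 were higher and 9 lower at 2 h, and of 18 somatic markers 4 were higher and 1 lower, where 14.5% of all genes were higher and 20.1% lower (edgeR). With the batch as a block, 0 germline markers were higher and 12 lower, and 13 somatic markers were higher and 1 lower. The shares of all genes were then 30.2% higher and 26.5% lower.

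The levels of the 10 mRNAs were compared first. Per kilobase of exon, pcn-1 was the most abundant, with 363 ± 35.6 CPM per kilobase after 2 h, 401 ± 37.9 after 1 h and 414 ± 45.6 with ethanol (SD, n = 6 each). The least abundant was cdt-1, with 15.9 ± 1.87, 16.6 ± 1.54 and 14.5 ± 1.7 CPM per kilobase in the same order of groups. In each group these 2 genes did not overlap any other member. The other 8 lay between 45.5 CPM per kilobase for cdc-6 and 98.7 for rnr-1 after 2 h. With ethanol their order ran from rnr-1 through mcm-7, mcm-5, mcm-2, mcm-3, mcm-6 and mcm-4 to cdc-6, and neighbours among these 8 overlapped in range in every group. The 6 helicase subunits, which occupy 1 place each in the ring, differed per kilobase by a factor of 1.9 ± 0.158 between the highest and the lowest after 2 h, 1.9 ± 0.151 after 1 h and 1.8 ± 0.0992 with ethanol.

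After auxin the mean mRNA levels of the 10 genes were between 0.876 and 1.15 times those with ethanol. None passed the test on groups alone, which does not pair the libraries of a batch. With the batch as a block 3 of 10 were higher and 3 lower at 2 h, near the shares of all genes given below. The counts in this paragraph are without the block. At an adjusted p under 0.05, edgeR called 0 of 10 at 2 h, where 34.6% of the 13969 genes tested were called. At 1 h it called 0 of 10 against 10.6% of all genes, and between the auxin times 0 of 10 against 6.89%. The groups overlapped for all 10 in both comparisons with ethanol, whereas 4.2% of all genes lay wholly higher and 9.41% wholly lower at 2 h, and 1.68% and 4.14% did at 1 h. At an unadjusted p under 0.05 the counts were 1 at 2 h (pcn-1), 2 at 1 h (mcm-5 and cdt-1) and 0 between the auxin times, and DESeq2 also called 0 in each comparison. The shares of all genes at the unadjusted threshold and with DESeq2 are not given, so these counts are not a result about the members. The median log2 change of the 10 was -0.018 at 2 h, where that of all genes was 0.074, and 0.026 at 1 h, where that of all genes was 0.0009. Standard errors at 2 h ran from 0.0566 for cdc-6 to 0.106 for mcm-4.

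**Figure D1:**
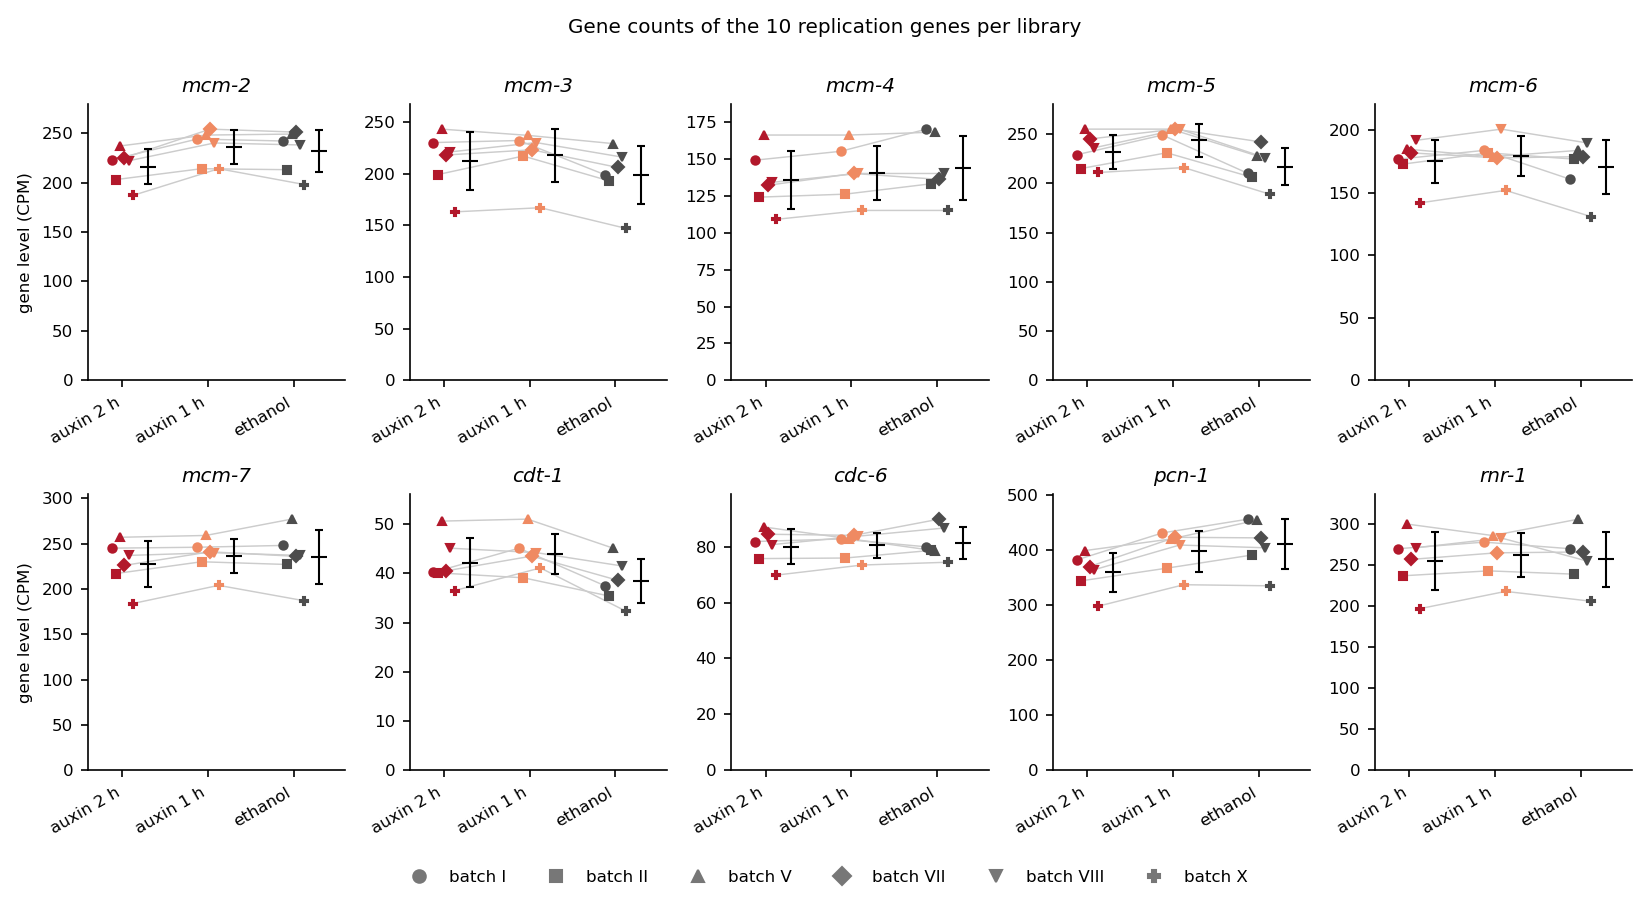
Gene level in CPM (y axis, from 0) of each of the 10 genes in the 18 libraries, with the groups auxin 2 h, auxin 1 h and ethanol along the x axis. Symbols mark batches, grey lines join the libraries of a batch, and the black bars are mean ± SD (n = 6). The groups overlap in all 10 genes, and batch X is the lowest library in 10 of 10 genes after 2 h and with ethanol.

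Libraries of a batch moved together, and batch X stood apart. In batch X all 10 genes had their lowest value after 2 h and with ethanol, and 9 of 10 did after 1 h, the exception being cdt-1. The summed level of the 10 genes in batch X was 0.798 times the mean of the other 5 libraries after 2 h, 0.827 times after 1 h and 0.785 times with ethanol. The 18 germline markers were also lowest in batch X in each group, at 0.831, 0.902 and 0.876 times the others in the same order of groups. The 13 sperm markers were highest there, at 1.27, 1.22 and 1.29 times. The 18 somatic markers were at 0.946, 0.909 and 0.97 times, within the range of the other libraries in each group. In whole worms, fewer germ cells and less of these mRNAs per germ cell cannot be told apart.

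With the batch as a block in the model, edgeR called 3 of the 10 members higher and 3 lower at 2 h, where it called 30.2% of all genes higher and 26.5% lower. These shares are near those of all genes. Within the helicase ring small changes of opposite sign passed. At 2 h mcm-3 was higher, with 163, 219 and 243 CPM as lowest, median and highest after auxin, against 147, 202 and 229 CPM with ethanol. Its log2 change was 0.10 (SE 0.0281, adjusted p = 0.00411 by edgeR with the block, 0.473 without), and it was higher in 6 of 6 batches. mcm-5 likewise had 211, 232 and 255 CPM after auxin, against 189, 218 and 242 CPM with ethanol, a change of 0.10 (adjusted p = 0.00362 by edgeR with the block). The opposite was seen for mcm-2, with 187, 223 and 237 CPM after auxin, against 198, 240 and 251 CPM with ethanol, lower in 6 of 6 batches by -0.10 (adjusted p = 0.00229 by edgeR with the block). mcm-4 was at 109, 133 and 166 CPM after auxin, against 115, 138 and 170 CPM with ethanol, a change of -0.085 (adjusted p = 0.00937 by edgeR with the block). In each of these 4 subunits the groups overlapped, and the shift showed only as a displacement within batches. mcm-6 (medians of 180 CPM after 2 h and 178 CPM with ethanol) and mcm-7 (medians of 232 CPM after 2 h and 237 CPM with ethanol) passed with neither model.

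Of the loading factors, cdt-1 had 36.5, 40.3 and 50.6 CPM as lowest, median and highest after 2 h, against 32.3, 38.1 and 45.1 CPM with ethanol. It was higher in 6 of 6 batches at both times, by 0.14 at 2 h (edgeR with the block, adjusted p = 0.00268). For 1 h the value was 0.20 (edgeR with the block, adjusted p = 0.000144). cdc-6 was at 79.9 ± 6.25 CPM after 2 h, 80.4 ± 4.58 CPM after 1 h and 81.3 ± 5.74 CPM with ethanol (SD, n = 6 each), and its log2 change at 2 h was -0.026 (SE 0.0566). In both loading factors the groups overlapped.

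The clamp gene pcn-1 showed the largest shift of the 10 at 2 h. It had 298, 367 and 399 CPM as lowest, median and highest after 2 h, 337, 415 and 431 CPM after 1 h, and 335, 413 and 456 CPM with ethanol. The 2 h libraries were lower than the ethanol library of their batch in 6 of 6 batches, at 0.837 to 0.902 times its value. The log2 change was -0.19 (SE 0.0795, adjusted p = 0.0678), which missed the threshold, while with the block the adjusted p was 1.3e-06 (edgeR in both). Without batch X, pcn-1 passed also without the block (adjusted p = 0.0175 by edgeR). The reductase gene rnr-1 was at 255 ± 35.4 CPM after 2 h, 262 ± 26.9 CPM after 1 h and 257 ± 33.4 CPM with ethanol (SD, n = 6 each), a log2 change of -0.011 at 2 h.

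At 1 h edgeR with the block called 3 higher, which were mcm-3 (0.14), mcm-5 (0.17) and cdt-1 (0.20), and 0 lower, where 12.5% of all genes were higher and 18.2% lower. Between the auxin times 3 were lower, mcm-2 (-0.12), mcm-5 (-0.072) and pcn-1 (-0.15), and 0 higher, where 16.3% of all genes were lower and 16.4% higher.

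The other genes of the replication pathway were examined beside the 10. A list of 46 names gave 42 genes, and 4 names (dbf-4, cdc-45, gins-4 and rfc-5) were not found. At 2 h 27 of the 42 fell and 0 rose, where the shares of all genes tested were the 20.1% and 14.5% given above (edgeR). The median log2 change of the 42 was -0.23, beside -0.018 for the 10 members. At 1 h 6 of 42 fell and 0 rose, where 6.93% of all genes fell and 3.62% rose, and the median was -0.093. With any 1 batch left out the count of falls at 2 h ran from 20 to 33, and the count at 1 h ran from 2 (without VII) to 7, with 3 without I, II or VIII. With the batch as a block 37 fell at 2 h and 24 at 1 h, where 26.5% and 18.2% of all genes fell.

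The largest fall was that of rpa-4, which encodes a subunit of the single-strand binding complex related to RPA-2. It had 6.14 ± 0.41 CPM after 2 h and 14.2 ± 1 CPM with ethanol (SD, n = 6 each), lower in 6 of 6 batches by -1.21 (SE 0.0696, adjusted p = 1.27e-10 by edgeR). Next came 2 subunits of GINS, the complex that joins the MCM ring to make the active helicase. Here psf-1 was at 30.8 ± 3.34 CPM after 2 h and 48.5 ± 4.8 CPM with ethanol, and psf-3 was at 22.4 ± 3.05 CPM after 2 h and 33.2 ± 2.55 CPM with ethanol. The origin recognition gene orc-4 followed, at 23.6 ± 1.03 CPM after 2 h and 31.6 ± 2.79 CPM with ethanol (log2 change -0.42, adjusted p = 2.02e-05 by edgeR). The small subunit of ribonucleotide reductase, rnr-2, fell to 294 ± 41.9 CPM after 2 h, against 355 ± 44.7 CPM with ethanol (-0.27, adjusted p = 0.0363 by edgeR). For its large subunit partner rnr-1 the change was -0.011, as above. The clamp loader genes rfc-2, rfc-3 and rfc-4 fell by 0.33, 0.26 and 0.29 on the log2 scale (adjusted p = 0.000748, 0.0212 and 0.00121 by edgeR), and rfc-1 was at -0.14 (adjusted p = 0.103). The reductase and clamp loader genes were named after their values were seen. No test compared the 10 genes with the 42.

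**Figure D2:**
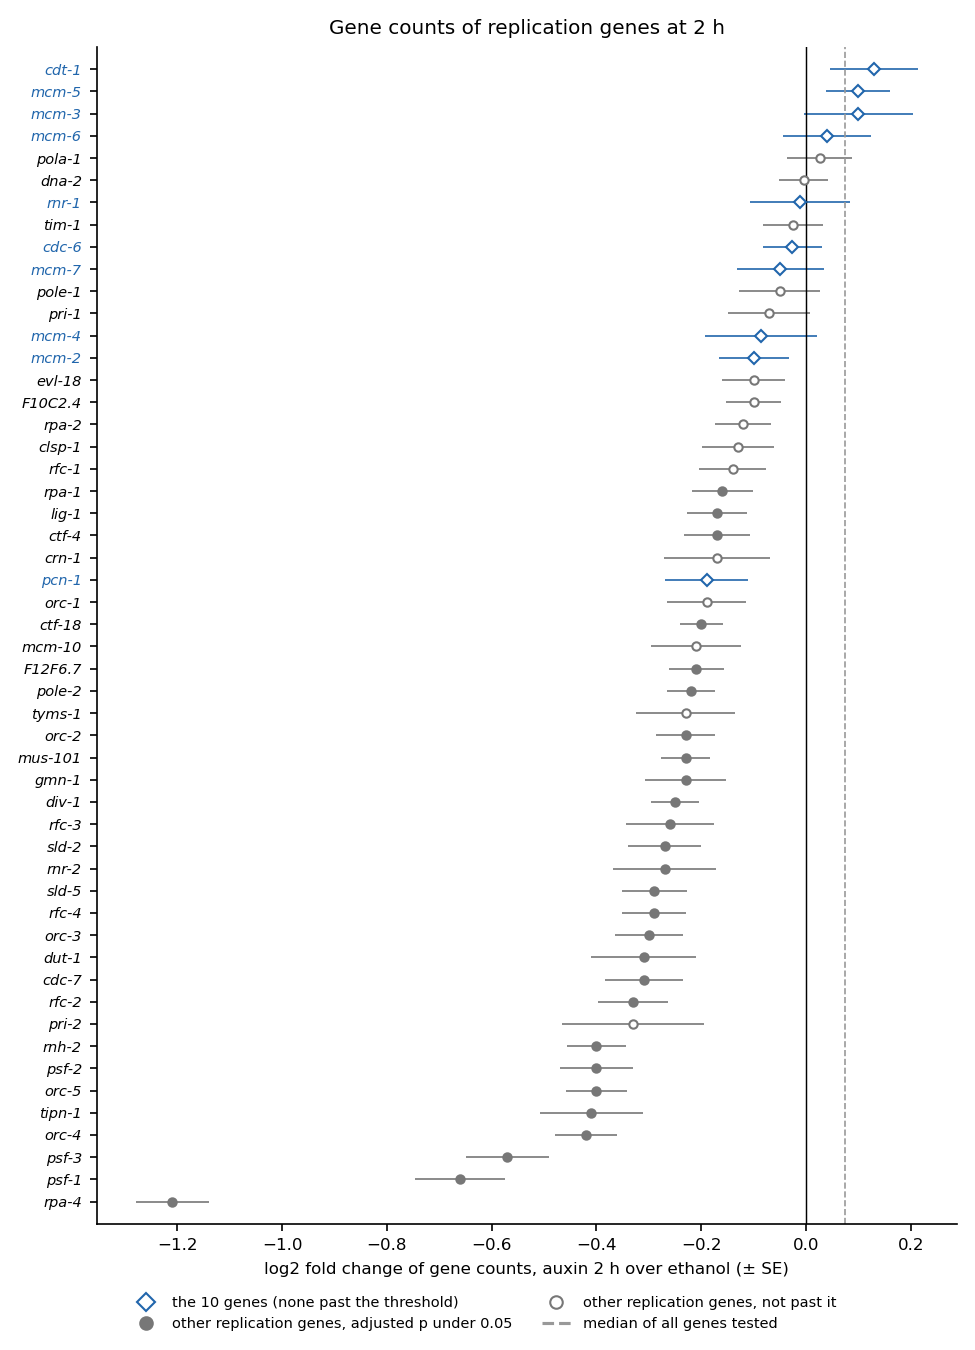
Log2 fold change of gene counts at 2 h, auxin over ethanol (x axis, bars are ± SE), for the 10 genes (blue diamonds) and the 42 other replication genes (grey circles), sorted by value along the y axis. Filled symbols have an adjusted p under 0.05 by edgeR without the batch as a block. The 27 filled symbols are all negative, 9 of the 10 members lie between -0.10 and 0.13, and pcn-1 lies at -0.19.

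Summed over the 42 genes, the list held 2562 to 3210 CPM after 2 h, 2836 to 3408 CPM after 1 h and 2940 to 3610 CPM with ethanol. The germline markers had a median log2 change of -0.17 at 2 h and the somatic markers one of 0.18. The part of a change in the share of germline RNA in these falls was not tested.

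Intron reads gave a different picture: they rose in all 10 genes. The deposited interval table lists 38 introns of these genes, each equal to an intron of the WBcel235 annotation, and none is assigned to a second gene. Of these introns 37 lie between coding exons, and 1, intron 1 of rnr-1, lies in an untranslated region. Most are short, with 26 of 70 bases or less. For mcm-2 and rnr-1, 1 annotated intron each is not analysed here, and that of rnr-1 holds the small nucleolar RNA gene T23G5.7.

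The first measure was the sum of a gene's intron reads per 1000 of its gene reads. For the helicase subunits mcm-2, mcm-3, mcm-4, mcm-5 and mcm-7 the means after 2 h were 37.7, 37.9, 48.2, 54 and 58.2, against 4.66, 1.06, 4.73, 3.30 and 3.52 with ethanol. In mcm-6 the value was far higher after auxin, at 139, 184 and 208 as lowest, median and highest after 2 h, 84.8, 110 and 115 after 1 h, and 1.0, 2.05 and 3.62 with ethanol. cdc-6 came second, with 108, 131 and 163 after 2 h, 77.1, 80.7 and 109 after 1 h, and 6.11, 8.16 and 10.4 with ethanol. The clamp gene pcn-1 had 39.5, 50 and 53.4 after 2 h, 27.4, 30 and 31.9 after 1 h, and 7.7, 8.07 and 10.4 with ethanol. It had the highest mean of the 10 with ethanol, 8.51 ± 1.08, beside 8.25 ± 1.73 for cdc-6 (SD, n = 6 each). The reductase gene rnr-1 averaged 42.3 ± 3.51 after 2 h, 27.4 ± 3.06 after 1 h and 1.35 ± 0.501 with ethanol. After 1 h the 5 helicase genes other than mcm-6 averaged 31.2 (mcm-2), 28.1 (mcm-3), 35.1 (mcm-4), 37.8 (mcm-5) and 45.3 (mcm-7), each between its ethanol and its 2 h mean. In all 10 genes the lowest auxin library was above the highest ethanol library, which was so in 65.6% of the 6614 host genes tested at 2 h and 63% at 1 h.

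**Figure D3:**
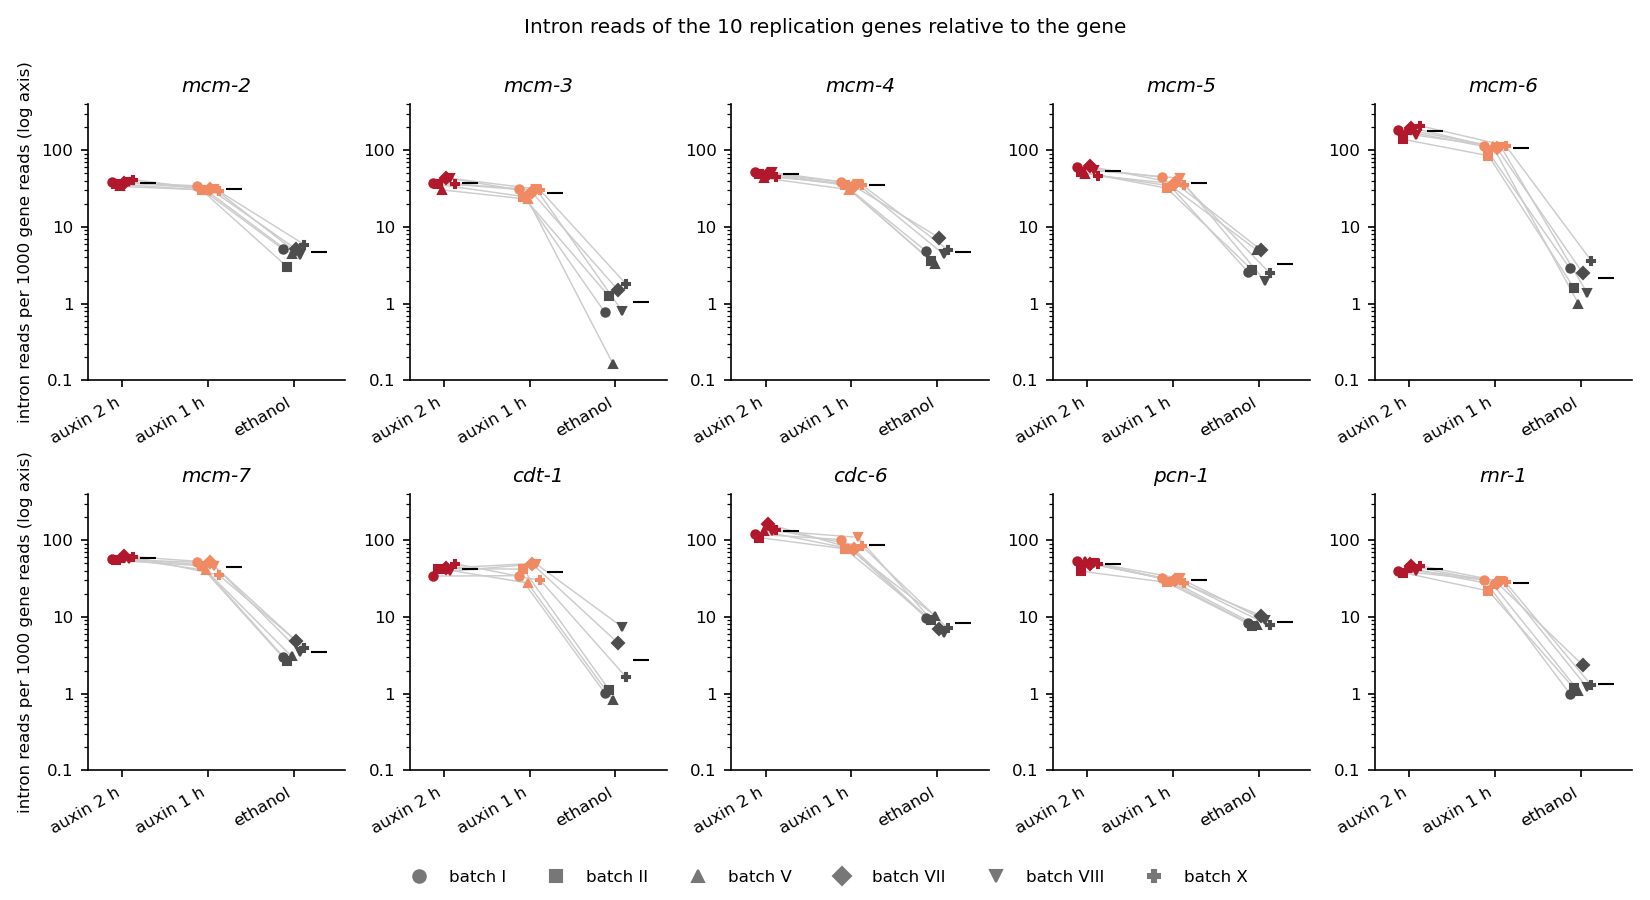
Intron reads per 1000 gene reads (y axis, log scale) of each gene in the 18 libraries, with the groups auxin 2 h, auxin 1 h and ethanol along the x axis. Symbols mark batches, grey lines join the libraries of a batch, and black bars are group means (n = 6). In all 10 genes both auxin groups lie above all ethanol libraries, and mcm-6 (mean 178 after 2 h) and cdc-6 (mean 131) lie highest.

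Relative to the host gene, summed intron counts were called higher in 10 of 10 genes at 2 h, where 72.6% of all hosts were, and in 10 of 10 at 1 h, where 71% were (edgeR with the host gene's count as offset). The log2 change at 2 h ran from 2.52 in pcn-1 (SE 0.102) to 6.43 in mcm-6 (SE 0.171), with a median of 3.98 over the 10 genes and 1.90 over all hosts. Without the offset the count was also 10 of 10 at both times, where 75.3% of hosts rose at 2 h and 70.5% at 1 h, and the medians at 2 h were 3.99 for the 10 and 1.74 for all hosts. The change of mcm-6, 6.46 (SE 0.171, adjusted p = 7.58e-30 by edgeR), ranked 16 from the top of the 6614 hosts. For the 42 other replication genes, 35 of the 37 tested rose at 2 h, with a median of 3.57. All 18 germline markers rose, with a median of 3.74, and 7 of the 12 somatic markers tested did, with a median of 0.41. Relative to the host, 18 of 18 germline markers (median 4.09) and 2 of 12 somatic markers (median 0.20) rose. These values scale intron counts by the factors of the gene table. With TMM factors from the intron counts themselves, the median of all hosts at 2 h was -0.30 in place of 1.74, with 2743 called higher and 3385 lower in place of 4980 and 38. All 10 genes were higher under that scaling too, with a median of 2.21 and a range of 0.51 to 4.66. Of the 37 other replication genes 30 were then higher and 6 lower (median 1.77), of the 18 germline markers 15 were higher and 1 lower (median 1.94), and of 14 somatic markers tested 0 were higher and 14 lower (median -1.44).

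**Figure D4:**
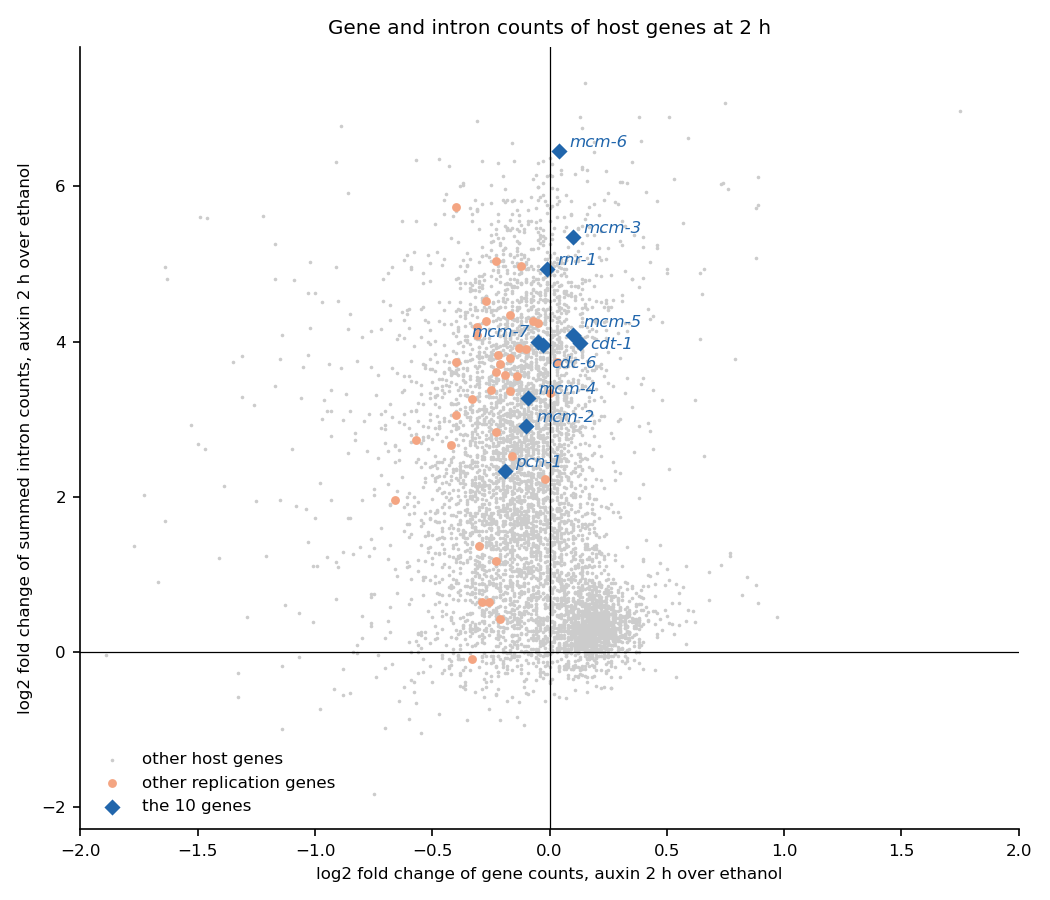
Log2 fold change at 2 h, auxin over ethanol, of gene counts (x axis) and of summed intron counts (y axis) for 6582 host genes tested on both scales, of which 9 lie outside the x axis. Blue diamonds are the 10 genes and orange points are 37 other replication genes. The 10 lie within -0.19 and 0.13 on the x axis and between 2.33 and 6.46 on the y axis.

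Most of this gain was present at 1 h. The relative log2 change at 1 h ran from 1.81 in pcn-1 to 5.69 in mcm-6. Between 1 h and 2 h of auxin 9 of 10 genes rose further relative to the host, where 36% of hosts did (edgeR). The largest further gains were in mcm-6, 0.74 (SE 0.108, adjusted p = 1.51e-06), and pcn-1, 0.71 (SE 0.0906, adjusted p = 1.67e-07). The exception was cdt-1, with 41.9 ± 5.05 intron reads per 1000 gene reads after 2 h and 38.8 ± 9.57 after 1 h (SD, n = 6 each), a change of 0.13 (SE 0.185, adjusted p = 0.637 by edgeR). Its introns had 28 to 48 reads per library after 2 h, 28 to 45 after 1 h and 1 to 7 with ethanol, the fewest of the 10. Without the offset, 8 of 10 rose, where 30.1% of hosts did, the exceptions being cdt-1 and mcm-2. mcm-7 lay at the threshold there (0.29, adjusted p = 0.0486 by edgeR) and missed it with any 1 batch left out, at adjusted p of 0.0518 to 0.19, and mcm-3 missed it without batch VII (0.0655). Relative to the host, mcm-2 (0.27, adjusted p = 0.0225) missed it without batch VII (0.0559), VIII (0.0544) or X (0.0928). With TMM factors from the intron counts 4 of 10 sums rose between the auxin times, where 716 of 7149 sums did.

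Single introns were then tested one by one. Of the 38, 34 passed the filter on low counts, and the other 4 were mcm-2 intron 1, mcm-4 introns 1 and 2 and cdt-1 intron 1. Of the 34, 14 had 3 counts or fewer in every ethanol library and passed through their auxin counts, so all 38 are described. Over all 38, the mean was higher after auxin than with ethanol at both times, and the groups did not overlap for 36 at 2 h and 35 at 1 h. That held for 22.8% and 20.6% of the 82049 intervals with at least 1 read. Without the filter edgeR called 38 of 38 higher at both times, where it called 31.4% of these intervals higher at 2 h and 28.7% at 1 h. Most of these intervals did not pass the filter. Of the 15325 introns that did, 13045 were higher at 2 h and 12753 at 1 h, beside 34 of 34 in the 10 genes. The median log2 change at 2 h was 3.33 over the 15325 and 4.61 over the 34. With factors from the intron counts 29 of the 34 were called higher at 2 h and 30 at 1 h, where 7589 and 7463 of 16935 introns were. Under that scaling pcn-1 intron 2 and mcm-4 intron 6 were called lower at both times, where 6209 introns were at 2 h and 5997 at 1 h. In 26 introns the ethanol mean was below 0.129 CPM, the level of 3 counts in a mean ethanol library, and only a bound against that level can be given. It ran from at least 2.28-fold to at least 180-fold higher at 2 h. The bound compares means and does not cover the spread between ethanol libraries, single ones of which could lie above that level. For the other 12 introns the fold change of the means at 2 h ran from 3.22 to 34.4, with a median of 13.5, and at 1 h from 2.27 to 21.5, with a median of 10.3.

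**Figure D5:**
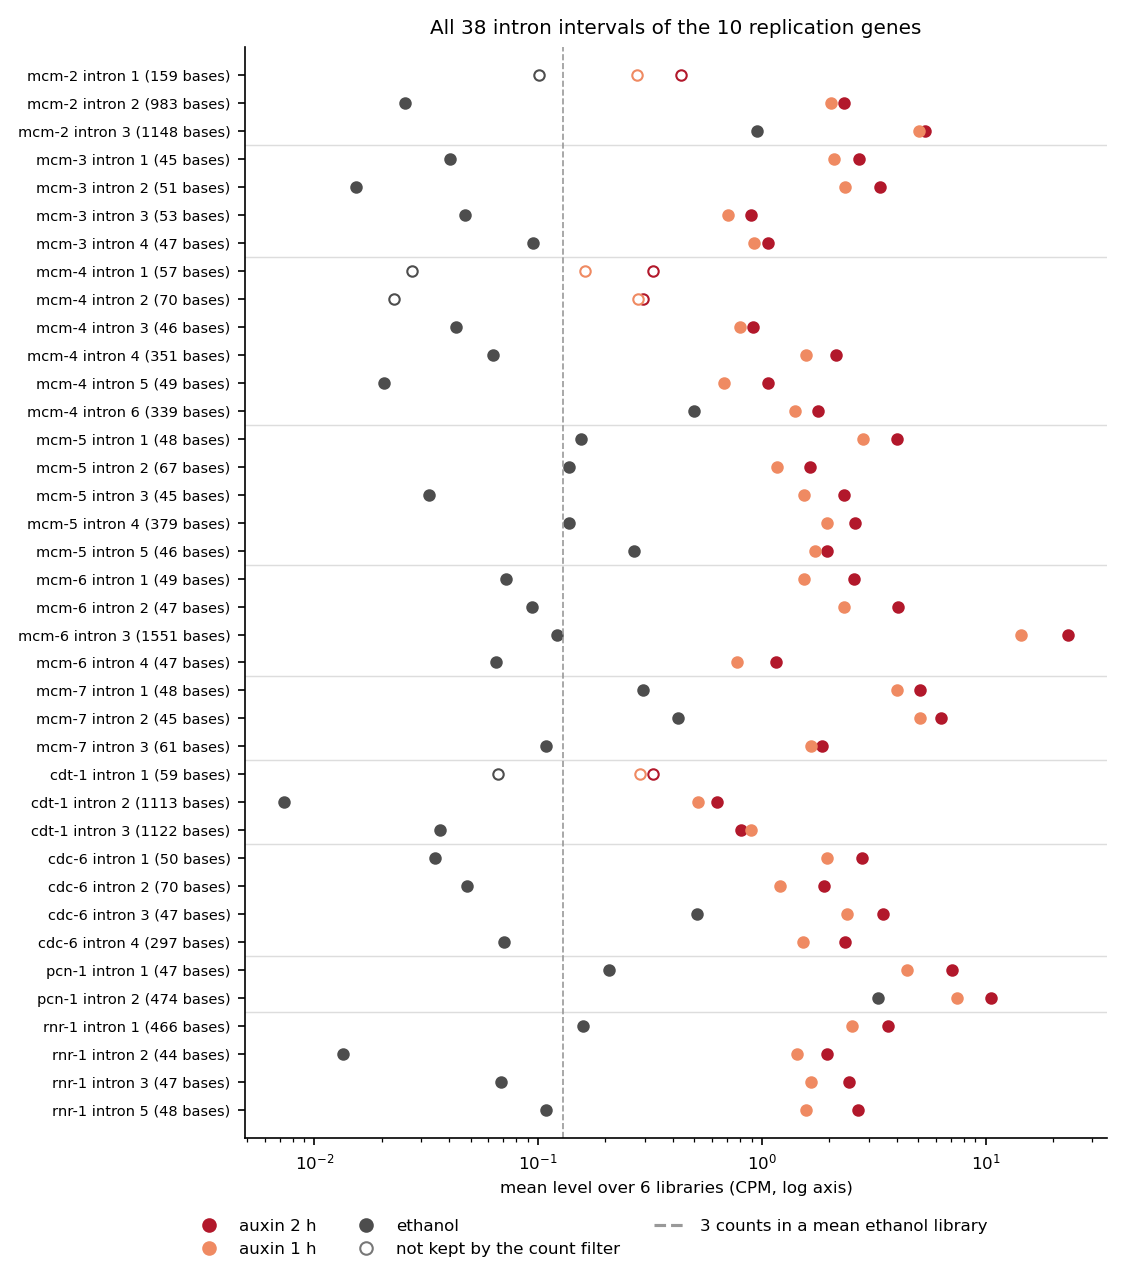
Mean level over 6 libraries (x axis, CPM, log scale) of each of the 38 introns (y axis, with length) after auxin for 2 h and 1 h and with ethanol. Open symbols mark 4 introns not kept by the count filter, and the dashed line is the level of 3 counts in a mean ethanol library (0.129 CPM). All 38 introns lie higher after auxin. The highest ethanol means are those of pcn-1 intron 2, mcm-2 intron 3, cdc-6 intron 3 and mcm-4 intron 6 (0.497 CPM), closely followed by mcm-7 intron 2 (0.42 CPM).

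The intron with the highest level after 2 h was intron 3 of mcm-6 (WBGene00003158, plus strand), of 1551 bases on chromosome III from 9795275 to 9796825. It had 17.9, 23.5 and 26.5 CPM as lowest, median and highest after 2 h, 11.8, 14.6 and 17.1 CPM after 1 h, and 0.037, 0.0843 and 0.317 CPM with ethanol. The groups did not overlap, and the ethanol values stand for 1 to 6 reads per library, against 475 to 603 after 2 h. Against the level of 3 counts, 0.129 CPM, the mean of this intron was 180-fold higher at 2 h and 112-fold higher at 1 h. Its ethanol mean, 0.122 CPM, was just under that level. These folds are therefore near the ratio of the means and are not limits that cover the spread between libraries. The second hour added 0.69 on the log2 scale (SE 0.122, adjusted p = 2.87e-05 by edgeR). This intron held 74.9% of the gene's intron reads after 2 h and 91.6% of its intron length. The chemoreceptor-family gene srxa-10 overlaps it on the other strand, and whether interval reads were counted by strand is not stated. The gene counts of srxa-10 were 108 to 197 after 2 h, 128 to 215 after 1 h and 113 to 222 with ethanol. Without this intron the summed introns of mcm-6 still rose by 5.03 (SE 0.199) in place of 6.46. Its short introns 1, 2 and 4, of 47 to 49 bases, were at 2.57, 4.07 and 1.16 CPM after 2 h and at 0.0719, 0.0939 and 0.065 CPM with ethanol.

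The other helicase genes lie on chromosome II from 12001509 to 12006625 (mcm-2, WBGene00003154), on V from 15056719 to 15059599 (mcm-3, WBGene00003155), on I from 2318291 to 2321817 (mcm-4, WBGene00003156), on III from 4288264 to 4291266 (mcm-5, WBGene00003157) and on V from 4347166 to 4349768 (mcm-7, WBGene00003159). mcm-7 is on the plus strand and the others are on the minus strand. In mcm-2 intron 3 (1148 bases, 12002046 to 12003193) was already read with ethanol, at 0.952 ± 0.255 CPM, and stood at 5.36 ± 0.406 CPM after 2 h and 5.06 ± 0.356 CPM after 1 h (SD, n = 6 each). Its fold change was 5.63 at 2 h, while intron 2 of the same gene, with 0 to 2 reads in each ethanol library, was at least 18-fold higher. With factors from the intron counts the log2 change of intron 3 at 2 h was 0.046 (adjusted p = 0.78 by edgeR). Intron 2 of mcm-3 (51 bases, 15059197 to 15059247) had 54 to 99 reads per library after 2 h, 41 to 87 after 1 h and 0 or 1 with ethanol. It was at least 26-fold higher at 2 h and at least 18.2-fold higher at 1 h.

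In mcm-4 the top introns were 4 (351 bases, 2320702 to 2321052) and 6 (339 bases, 2318731 to 2319069), which are of similar length. Intron 4 was at 2.14 ± 0.4 CPM after 2 h and 0.0629 ± 0.0723 CPM with ethanol, at least 16.6-fold higher. Intron 6 was at 1.79 ± 0.235 CPM after 2 h and 0.497 ± 0.0781 CPM with ethanol (SD, n = 6 each), a 3.6-fold difference, which turned to -0.59 on the log2 scale with factors from the intron counts. The pair thus had nearly the same level after auxin and a different one with ethanol. Intron 1 of mcm-5 (48 bases, 4291034 to 4291081) rose 25.8-fold to 4.01 ± 0.913 CPM at 2 h, against 0.155 ± 0.101 CPM with ethanol. In mcm-7 intron 2 (45 bases, 4348185 to 4348229) was at 6.29 ± 0.929 CPM after 2 h, 5.10 ± 1.01 CPM after 1 h and 0.42 ± 0.0972 CPM with ethanol, a 15-fold difference at 2 h. Intron 1 of mcm-7 was 17.3-fold higher and intron 3 at least 14.4-fold. Genes on the other strand overlap mcm-2, mcm-3, mcm-4 and mcm-7, namely Y17G7B.23, C25D7.16, ekl-7 and F32D1.3, and of the 38 introns only intron 3 of mcm-6 overlaps such a gene.

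The loading factor gene cdt-1 (WBGene00000413, chromosome I, 3223160 to 3228104, minus strand) has 2 long introns. Intron 3 (1122 bases, 3223791 to 3224912) had 13 to 24 reads after 2 h, 19 to 29 after 1 h and 0 or 1 with ethanol. It was at least 6.25-fold higher at 2 h, while the bound at 1 h was 6.91-fold. It is the 1 intron of the 38 with a lower mean after 2 h, 0.807 ± 0.105 CPM, than after 1 h, 0.892 ± 0.19 CPM, and the difference did not pass the test (-0.12, SE 0.209, adjusted p = 0.688 by edgeR). cdc-6 (WBGene00000382, chromosome I, 4268070 to 4270287, minus strand) had its most reads in intron 3 (47 bases, 4269803 to 4269849), at 3.48 ± 0.518 CPM after 2 h, 2.41 ± 0.572 CPM after 1 h and 0.513 ± 0.134 CPM with ethanol. That intron held 33.3% of the gene's intron reads after 2 h, 33.9% after 1 h and 77.1% with ethanol. The other 3 introns of cdc-6 rose more: introns 1, 2 and 4 with lower bounds of 21.7-fold, 14.7-fold and 18.2-fold at 2 h, against 6.78-fold for intron 3. With factors from the intron counts the log2 change of intron 3 was 0.29 at 2 h and 0.11 at 1 h (adjusted p = 0.155 and 0.622 by edgeR).

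The clamp gene pcn-1 (WBGene00003955, chromosome IV, 4047937 to 4049448, minus strand) has 2 introns that differ most plainly in this way. Intron 2 (474 bases, 4048642 to 4049115) had 7.74, 11 and 12.3 CPM as lowest, median and highest after 2 h, 5.57, 7.97 and 8.55 CPM after 1 h, and 2.38, 3.43 and 3.99 CPM with ethanol. It had the highest ethanol level of the 38 introns, from 45 to 95 reads per library, and small fold changes, 3.22 at 2 h and 2.27 at 1 h, which turned to log2 changes of -0.77 and -0.92 with factors from the intron counts. Intron 1 (47 bases, 4049230 to 4049276) was at 7.11 ± 1.53 CPM after 2 h, 4.45 ± 0.608 CPM after 1 h and 0.207 ± 0.108 CPM with ethanol (SD, n = 6 each), a 34.4-fold difference at 2 h. Intron 2 makes up 91% of the gene's intron length, and it held 59.9% of the gene's intron reads after 2 h and 94.2% with ethanol. The share with ethanol is thus near its share of the length. The summed value of pcn-1 therefore depends on it: the log2 change at 2 h was 2.33 with both introns and 5.07 with intron 1 alone. For mcm-2 and cdc-6 the sums likewise moved to 4.46 and 5.45 without their top intron, in place of 2.91 and 3.95. The sum of mcm-3 moved the other way, to 4.68 in place of 5.35, and those of mcm-4, mcm-5, mcm-6 and cdt-1 were lower too. In rnr-1 (WBGene00004391, chromosome III, 9225339 to 9228798, minus strand), intron 1 (466 bases, 9228251 to 9228716) had 3.17, 3.75 and 3.87 CPM as lowest, median and highest after 2 h, 1.33, 2.66 and 3.11 CPM after 1 h, and 0.0402, 0.168 and 0.269 CPM with ethanol, a 23.3-fold difference at 2 h.

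The place of the introns in the transcript was compared last. Among the introns tested, the last of a gene had the highest ethanol level in 6 of 10 members, namely mcm-2, mcm-3, mcm-4, mcm-5, cdt-1 and pcn-1. In mcm-3 and cdt-1 this rests on 13 and 5 reads over the 6 ethanol libraries. In cdt-1 it holds only among the tested introns. Its intron 1, which did not pass the filter, had a higher ethanol mean, 0.0659 CPM against 0.0363 CPM for intron 3. In 2330 hosts with at least 2 tested introns the same was so in 37.5%. If each tested intron of a gene were equally likely, the rate would be 32.8% in the 10 members and 31.6% in all hosts. The levels were not scaled by length. In mcm-2, cdt-1 and pcn-1 the last intron is also the longest, while in mcm-3, mcm-4 and mcm-5 it is not. The difference between the members and all hosts was not tested.

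Because a longer intron collects more reads, the 12 introns over 70 bases were also compared per kilobase, as a share of their own gene's level per kilobase. After 2 h these shares ran from 3.12% ± 0.59 in mcm-2 intron 2 to 22.2% ± 3.12 in mcm-6 intron 3 (SD, n = 6). The second highest was cdc-6 intron 4, of 297 bases, at 17.3% ± 2.84, and mcm-4 introns 4 and 6 followed at 11.9% ± 1.38 and 10.4% ± 1.36. With ethanol the shares ran from 0.031% in mcm-2 intron 2 to 2.74% in mcm-4 intron 6. The long introns of cdt-1, of 1113 and 1122 bases, reached 3.58% ± 0.575 and 4.54% ± 0.514 after 2 h (SD, n = 6 each). Introns 2 and 3 of mcm-2, of 983 and 1148 bases, were at 3.12% and 6.11%, so mcm-6 intron 3 was the only 1 of the 5 longest with a share above that. The levels used here are per length for both intron and gene, and no test compared introns with each other.

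Between the auxin times, 18 of the 34 tested introns were called higher and 0 lower, where 30.2% of all tested introns were higher and 1.08% lower (edgeR). With factors from the intron counts the count was 2 of 34, where 977 of 16935 introns were higher. Without batch VII it was 11. With the batch as a block it was 24, the 6 added being mcm-3 intron 1, mcm-4 intron 4, mcm-5 introns 2 and 4, mcm-7 intron 2 and rnr-1 intron 2 (adjusted p = 0.0134 to 0.0399 by edgeR with the block). The share of all introns is not given without batch VII or for the block, so these counts are not a result about the members. Among the 18 were the 4 tested introns of mcm-6, the 4 of cdc-6 and both of pcn-1. In mcm-2 and cdt-1 none was, and over the 38 the groups overlapped in all but 5, mcm-6 introns 1, 2 and 3 and rnr-1 introns 1 and 3. They did not overlap in 2.37% of the 82049 intervals with a read.

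Across the 18 libraries the levels of the 10 mRNAs varied together. Within groups, Pearson's r of log2 CPM between pairs of the 10 ran from 0.585 (mcm-4 and mcm-6) to 0.975, with a median of 0.832 over 45 pairs. The points share batch and library scaling, and batch X is low for nearly all of them. The genes outside the 10 whose pattern was most like the mean of the 6 helicase genes were cpg-4 (r = 0.960), K08F9.4 (0.960), gfat-1 (0.958), meg-1 (0.953) and hmg-4 (0.950), over 13959 genes. These values are over all 18 libraries and include differences between groups. Within groups they were 0.964, 0.964, 0.958, 0.987 and 0.953 in the same order of genes. Of the members outside the ring, rnr-1 was at 0.965 over all libraries and 0.974 within groups, and pcn-1 was at 0.832 and 0.952. For cdt-1 the pair of values was 0.792 and 0.836, and for cdc-6 it was 0.792 and 0.829.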

How the data were processed

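Poly-A selected RNA was sequenced with a stranded kit, per the labels' protocols. The deposited tables hold raw counts per gene, which the authors describe as reverse-strand counts, and raw counts per intron interval, whose strand setting is not given in the sources used here. Trimmomatic, cutadapt, STAR, SAMtools, Picard, featureCounts, limma and edgeR appear, without versions, in the submitters' processing notes. The genome build is not given in the sources used here. Coordinates are called WBcel235 because 104851 of 106818 intervals (98.2%) equal an intron of the Ensembl annotation of that build.

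Gene counts, single intron counts and intron counts summed per gene were tested with edgeR 4.0.16 (R 4.3.3, limma 3.58.1), by quasi-likelihood with TMM factors of the gene table, over all 18 libraries, after filterByExpr with a minimum count of 10. This left 13969 genes, 15325 introns and 6614 sums. Relative tests used the log of the host gene's count plus 0.5 as offset. P-values were adjusted by Benjamini-Hochberg over all features tested, with a threshold of 0.05, and measure the spread between libraries, which may be technical in part. DESeq2 1.42.0 was an alternative, beside other scalings, filters, left-out batches, the batch block and other sets of introns. Tables and plots used Python 3.11.15, pandas 2.3.3, numpy 2.4.6 and matplotlib 3.10.9. The edgeR model without the block was tested on simulated data for each kind of count. These data held no batch effect and no general shift of introns. The block, DESeq2 and the factors from intron counts were not tested in this way. Depth was 18153020 to 30747645 gene counts and 186471 to 885408 intron counts per library. A count of 3 is 0.0985 to 0.164 CPM, and where the ethanol mean is under 0.129 CPM, its mean over ethanol libraries, folds are bounds against it; they cover counting error only.

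The labels name the batches. Same-batch libraries deviated together from their group means (r = 0.146 to 0.674 over 18 pairs), against -0.522 to 0.386 over 90 other pairs, so the batch pairs the libraries, and values with the block are given where a member's call changed.

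The members and gene lists were chosen with earlier results of these data known. The intron with the highest level at 2 h was named in each gene, with any called lower, the 4 list genes with the largest changes at 2 h and the 5 genes most alike in pattern. Other introns were named after their values were seen. No sequences were analysed here.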

Additional observations from a re-analysis of the deposited data

Results flagged for a closer look

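Of 60 sets of 6 libraries (10 genes, 3 groups, gene level and intron reads per 1000 gene reads), 5 held a library far from the others by Dixon's criterion, and chance gives about 1 in 20 sets. After 1 h of auxin mcm-3 stood at 166.5 CPM in batch X, where the nearest library had 217 CPM. After 2 h mcm-6 stood at 142.5 CPM in batch X, where the nearest had 173.4 CPM. In batch II, mcm-6 had 84.8 intron reads per 1000 gene reads after 1 h, where the nearest had 106.2, and pcn-1 had 39.54 after 2 h, where the nearest had 48.66. With ethanol, rnr-1 had 2.358 intron reads per 1000 gene reads in batch VII, where the nearest had 1.286. What sets these libraries apart was not tested.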

How the results depend on the processing

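Of the single values recomputed under each alternative, 1346 kept their direction and side of the threshold, 32 lost the threshold, 19 gained it and 13 changed sign. The replicate block (batch) gave 3 higher and 3 lower members at 2 h, 3 higher at 1 h and 3 lower between the auxin times in gene counts, where the model without it gave 0, and changed no count of member introns or sums by over 1.5 times. Library sizes alone gave 1 lower at 2 h (pcn-1). With 1 batch left out, gene counts gave 0 to 1 lower at 2 h and 0 to 1 higher at 1 h (mcm-5 without X), and single introns gave 11 to 19 higher between the auxin times. The shares of all genes and introns with a batch left out are not given. TMM on intron counts gave 2 introns lower at 2 h and 2 at 1 h, and between the auxin times 2 single introns and 4 sums higher.

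Signs changed with TMM on intron counts for pcn-1 intron 2 (-0.77 at 2 h, -0.92 at 1 h), for mcm-4 intron 6 (-0.59 at 2 h, -0.56 at 1 h, not among the 13) and, between the auxin times, for mcm-2 intron 3 (-0.27), mcm-7 intron 2 (-0.051) and the sums of mcm-2 (-0.14) and cdt-1 (-0.20). With 1 batch left out, rnr-1 gene counts at 2 h ran from -0.027 to 0.0058, being 0.0052 without VII and 0.0058 without X. Those of cdc-6 at 1 h ran from -0.034 to 0.0083, being 0.0083, 0.0079 and 0.0058 without VII, VIII and X. The sum of cdt-1 between the auxin times ran from -0.042 to 0.14, being -0.042 without V and -0.025 without X. The cause was not tested. The further rise of the mcm-7 sum lost the threshold in 11 alternatives. DESeq2 and library sizes alone were not run relative to the host. Ethanol means under 0.129 CPM limit the folds of 26 introns to bounds.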
